A study of Mus musculus with 24 samples.

Results

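The genes of glucose uptake, glycolysis and the transcriptional response to low oxygen were followed in Ocy454 cells, a mouse osteocytic line that serves as a culture model of the osteocyte. The set held 37 named genes of 49171 genes in the annotated count table. All 37 passed the filter on low counts. They comprised 3 transporters of glucose and lactate, 16 glycolytic enzymes, 5 regulators around the pathway and 13 genes of oxygen sensing and the hypoxia response. Cells had received both agents, lysophosphatidic acid (LPA) alone, 1,25-dihydroxyvitamin D (1,25D) alone or vehicle, for 8 h or 2 h. LPA is a signalling lipid that acts through G protein-coupled receptors, and 1,25D is the hormone that binds the vitamin D receptor. Each of the 8 groups had 3 libraries of total RNA, 24 in all. Nothing in the labels tells whether a group's 3 libraries were grown separately. The spread behind each p-value may thus be technical. All groups were the same line, with no genetic change named in the labels, and no dose or culture oxygen level is given in the sources used here.

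Glycolysis splits glucose into pyruvate, which lactate dehydrogenase reduces to lactate when it is not sent into mitochondria. When oxygen falls, prolyl hydroxylases no longer mark hypoxia-inducible factor (HIF) for degradation, and HIF binds short DNA motifs near genes for glucose transporters, glycolytic enzymes, angiogenic factors and the hydroxylases themselves. Many of these genes also answer to growth factor, hormone and stress signals in oxygenated cells. Osteocytes lie within mineralised bone, at a distance from vessels, and osteoblast-lineage cells use glycolysis heavily.

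Libraries held 32964439 to 33842037 estimated counts, and mitochondrially encoded genes took 9.01 to 16.92% of them, the most in vehicle replicate 2 at 8 h. Cyp24a1, the vitamin D receptor's most responsive target, did not match the single-treatment labels. At 8 h it had 35, 28 and 24 counts with both agents, 25, 48 and 29 in libraries labelled LPA, 0, 1 and 0 in libraries labelled 1,25D, and 1, 0 and 0 in vehicle libraries. Vdr, which encodes that receptor, averaged 223 ± 16 CPM with both agents, 254 ± 6.9 CPM in libraries labelled LPA, 72.3 ± 1.9 CPM in libraries labelled 1,25D and 125 ± 12 CPM in vehicle libraries at 8 h (SD, n = 3 each). The names of the deposited tables carry the treatment letters the other way round for the single treatments. Groups are therefore called libraries labelled LPA and libraries labelled 1,25D throughout, and no result for a single agent is assigned to the compound itself. The groups with both agents and with vehicle are not touched by this. Some libraries at 8 h ranked alike across the members. Replicate 2 with both agents was the highest of its 3 libraries for 27 of 37 members, replicate 1 labelled LPA for 31, and replicate 2 labelled 1,25D for 30. Their median log2 deviations from the group mean were 0.22, 0.16 and only 0.06. Replicate 2 labelled LPA was the lowest for 26 (-0.12), vehicle replicate 3 for 24 (-0.1), replicate 1 labelled 1,25D for 22 (-0.05) and replicate 3 with both agents for 21 (-0.12). Results that lean on single libraries are also given without them.

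The osteoblast-lineage markers Col1a1, Col1a2, Spp1, Pdpn and Runx2 were expressed, with medians of 726, 410, 548, 57.8 and 26.1 TPM, a unit that corrects for transcript length and scales every library to one total. The other markers of this lineage that were examined were low, with medians of 4.48 TPM for Bglap, 0.817 for Alpl, 0.232 for Sp7 and 0 for Ibsp. The mature osteocyte markers Sost, Mepe and Fgf23 had medians of 0.0173, 0 and 0 TPM. Phex had 0.148 TPM and Dmp1 had 1.03 TPM. Summed markers of adipocytes (5 genes), endothelium (5 genes), skeletal muscle (5 genes) and chondrocytes (5 genes) stayed at or below 1.07, 1.58, 3.36 and 7.37 TPM in every library. Those of macrophages and blood (6 genes) summed to 16.3 to 25.2 TPM, of which Cd68 made up a median of 14.1 TPM, while Ptprc had a median of 0.0582 TPM. Their part in the results was not tested. In bulk RNA, fewer cells of a type and less RNA per cell cannot be told apart.

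On the TPM scale, which corrects for transcript length and so allows genes to be compared, the members spanned a wide range. Gapdh, which encodes glyceraldehyde-3-phosphate dehydrogenase, had a median of 12205 TPM over the 24 libraries and made up 60.5 to 70.5% of the members' summed TPM. The pyruvate kinase gene Pkm followed at 1124 TPM, then the aldolase gene Aldoa at 1063 TPM, the enolase gene Eno1 at 874 TPM and the lactate dehydrogenase gene Ldha at 865 TPM. Across these 5 genes the highest library held between 1.61 and 2.09 times the lowest. The widest spans belonged to low genes: 33.6 times for Ankrd37 (median 2.32 TPM), 16.7 times for the lactate exporter gene Slc16a3 (0.729 TPM), 15 times for Ak4 (2.88 TPM), and 11.2 times for both Vegfa (53.5 TPM) and Adm (1.34 TPM). Gapdh, Pgk1, Ldha, Eno1, Aldoa, Pgam1, Pkm and Tpi1 have processed pseudogenes or near-identical copies in the mouse genome. Reads shared with them could be split in ways the tables do not show. Tpi1 is uncertain for a further reason: its matched transcripts held 10.6 to 30.3 TPM, and the 0.4 to 0.6% of counts on transcripts without a gene name could not be assigned.

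In vehicle-treated cells, 8 of 13 genes of oxygen sensing and the hypoxia response were higher after 8 h than after 2 h and 5 did not pass the test, while 2 of 16 glycolytic enzyme genes were higher and 14 did not pass. Of the 37 members, 14 were higher and 3 lower at 8 h, 45.9% in all (edgeR quasi-likelihood test, Benjamini-Hochberg adjusted p below 0.05 over all genes). Of the 16423 genes tested, 14.6% passed, 5.88% higher and 8.7% lower. The median log2 fold change was 0.20 over the members and -0.02 over all genes tested. The 5 hypoxia-response genes that did not pass differed in direction. At 8 h over 2 h, Adm was 1.82-fold, Ndrg1 1.18-fold, Egln1 1.13-fold, Vegfa 0.895-fold and Car9 0.824-fold. DESeq2 also called Ndrg1, Ldha and Pdk3. A fit of the vehicle groups alone lost 10 of the calls. Among the hypoxia-response genes these were P4ha1, P4ha2, Mxi1 and Bhlhe40. The others were Pfkm, Pdk1, Slc16a3 and the 3 members that were lower. Leaving out vehicle replicate 2 at 8 h, the count was 12, and without replicates 2 of vehicle and of both agents at 8 h it was 14.

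Ankrd37, an ankyrin-repeat gene used as a marker of HIF activity, had 3.49, 2.76 and 2.32 CPM (read counts scaled to a common library size) in vehicle libraries at 8 h, against 0.369, 0.145 and 0.612 CPM at 2 h. Every 8 h library lay above every 2 h library, a 7.55-fold difference (log2 2.92 ± 0.33 SE, adjusted p = 2.4e-06). Ak4, a mitochondrial adenylate kinase, had 9.73, 11.1 and 7.38 CPM at 8 h, against 1.39, 2.00 and 2.24 CPM at 2 h, a 4.99-fold difference (log2 2.32 ± 0.23, adjusted p = 3.6e-07). Egln3, a HIF prolyl hydroxylase that is itself a HIF target, had 2.60, 2.64 and 2.21 CPM at 8 h, against 1.05, 1.07 and 0.961 CPM at 2 h (log2 1.27 ± 0.24, adjusted p = 0.0011). None of the 3 genes overlapped between the times, and all were low in absolute terms.

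Among the more abundant members, Bnip3, a mitophagy receptor, had 132, 166 and 120 CPM at 8 h, against 63.3, 58.8 and 64.5 CPM at 2 h (log2 1.16 ± 0.15, adjusted p = 1e-05). Slc2a1, the basal glucose transporter GLUT1, had 172, 180 and 152 CPM at 8 h, against 82.9, 80.6 and 79.6 CPM at 2 h (log2 1.05 ± 0.11, adjusted p = 9e-07). Kdm3a, a histone H3 lysine demethylase, had 125, 129 and 114 CPM at 8 h, against 77.3, 90.5 and 88.8 CPM at 2 h (log2 0.52 ± 0.09, adjusted p = 0.00031). In each the 3 libraries at 8 h lay above the 3 at 2 h. Without replicates 2 of vehicle and of both agents at 8 h, the log2 differences were 2.93 for Ankrd37, 2.18 for Ak4, 1.21 for Egln3, 1.01 for Bnip3, 0.99 for Slc2a1 and 0.47 for Kdm3a, all past the threshold.

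The 3 members that were lower at 8 h were Pfkfb3, Slc16a1 and Pfkfb4. None of the 3 passed when the vehicle groups were fitted alone. Pfkfb3, which makes the activator of phosphofructokinase fructose-2,6-bisphosphate, had 12.9, 10.3 and 12.3 CPM at 8 h, against 17.0, 17.0 and 17.6 CPM at 2 h (log2 -0.54 ± 0.09, adjusted p = 0.00035). Slc16a1, the lactate and pyruvate carrier MCT1, had 95.8, 104 and 87.2 CPM at 8 h, against 113, 119 and 132 CPM at 2 h (log2 -0.34 ± 0.08, adjusted p = 0.0035). Its relative Slc16a3 moved the other way, with 1.74, 1.68 and 1.29 CPM at 8 h, against 0.597, 0.753 and 0.758 CPM at 2 h (log2 1.15 ± 0.33, adjusted p = 0.019). Its call was lost without vehicle replicate 1 at 2 h or replicate 1 or 2 at 8 h. Pfkfb4, which makes the same activator, had 10.6, 9.90 and 12.7 CPM at 8 h, against 13.8, 13.8 and 15.0 CPM at 2 h. Its call (log2 -0.36 ± 0.10, adjusted p = 0.016) was lost without vehicle replicate 3 at 2 h or replicate 1 or 2 at 8 h. The enzyme genes that passed were the phosphofructokinases Pfkl (log2 0.43 ± 0.11, adjusted p = 0.011) and Pfkm (log2 0.24 ± 0.08, adjusted p = 0.046), and the Pfkm call was lost without any 1 of the 6 libraries. Of the hypoxia-response group, Bhlhe40, P4ha1, P4ha2 and Mxi1 were also higher at 8 h, as was Pdk1. The Bhlhe40 call was lost without replicate 2 or 3 at 2 h or replicate 1 or 2 at 8 h, and without replicates 2 of vehicle and of both agents at 8 h. The Pdk1 call was lost without replicate 2 at 8 h, and the P4ha2 call without replicate 2 at either time. The other 14 enzyme genes had log2 differences between -0.19 and 0.31.

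The promoters of 5 of the genes just described, 4 that were higher and 1 that was lower at 8 h, and of the hexokinase gene Hk2 are shown because they can be read against the core of the HIF-binding motif. Each is the 250 bases before a RefSeq transcription start on GRCm38.p6, written 5′ to 3′ along the gene's strand, with the cores ACGTG and GCGTG and their reverse complements CACGT and CACGC in capitals. The palindrome CACGTG holds a core on each strand, which were counted separately.
Ankrd37, chr8:45999851-46000100, minus strand: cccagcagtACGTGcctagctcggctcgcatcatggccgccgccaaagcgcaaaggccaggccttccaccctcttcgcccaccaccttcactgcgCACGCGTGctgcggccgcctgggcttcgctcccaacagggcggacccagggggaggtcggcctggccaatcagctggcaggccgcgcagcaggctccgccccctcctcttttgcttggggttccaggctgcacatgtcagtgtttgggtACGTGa
Bnip3, chr7:138909507-138909756, minus strand: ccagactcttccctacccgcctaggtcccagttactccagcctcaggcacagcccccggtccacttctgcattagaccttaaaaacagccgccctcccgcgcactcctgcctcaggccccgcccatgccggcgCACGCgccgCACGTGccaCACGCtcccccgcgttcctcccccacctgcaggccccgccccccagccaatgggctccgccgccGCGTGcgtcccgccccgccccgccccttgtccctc
Slc2a1, chr4:119108495-119108744, plus strand: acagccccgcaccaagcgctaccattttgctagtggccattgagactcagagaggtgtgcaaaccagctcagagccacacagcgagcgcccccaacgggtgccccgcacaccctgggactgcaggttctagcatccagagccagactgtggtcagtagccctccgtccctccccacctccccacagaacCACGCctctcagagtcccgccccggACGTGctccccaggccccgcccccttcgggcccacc
Egln3, chr12:54203875-54204124, minus strand: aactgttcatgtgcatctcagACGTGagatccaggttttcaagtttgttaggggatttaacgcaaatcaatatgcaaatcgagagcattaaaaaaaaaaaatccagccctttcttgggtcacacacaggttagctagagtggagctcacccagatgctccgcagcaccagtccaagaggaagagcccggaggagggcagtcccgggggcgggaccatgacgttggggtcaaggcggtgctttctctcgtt
Slc16a1, chr3:104638414-104638663, plus strand: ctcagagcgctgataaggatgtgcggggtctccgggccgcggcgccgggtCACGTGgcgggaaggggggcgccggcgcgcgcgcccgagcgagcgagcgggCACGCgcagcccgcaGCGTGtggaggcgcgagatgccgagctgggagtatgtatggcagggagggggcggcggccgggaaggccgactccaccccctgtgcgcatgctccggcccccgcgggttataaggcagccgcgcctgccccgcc
Hk2, chr6:82774455-82774704, minus strand: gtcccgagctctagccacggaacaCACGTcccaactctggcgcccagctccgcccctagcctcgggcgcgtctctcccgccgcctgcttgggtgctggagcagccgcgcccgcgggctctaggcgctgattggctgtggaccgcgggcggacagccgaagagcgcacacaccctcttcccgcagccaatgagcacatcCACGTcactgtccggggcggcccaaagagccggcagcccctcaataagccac
Ankrd37 held 4 cores, Bnip3 5, Slc2a1 2, Egln3 1, Slc16a1 4 and Hk2 2. RefSeq promoters were found for 35 of the 37 members, Ndrg1 and Bhlhe40 being the exceptions, and 44 of their 56 promoters (78.6%) held at least 1 core, against 38.6% of all 32851 promoters of this length. For ACGTG alone the shares were 46.4% and 16.6%. Member promoters were also richer in G and C, at a median of 61.0%, against 52.4% for all promoters, and the part of base composition in these shares was not tested. Slc16a1, which was lower at 8 h in vehicle, held as many cores as Ankrd37, so the count of cores did not follow the direction of change among these genes. A match of letters is a description and does not mark a bound site. Promoters of the same gene are not separate: Ak4 has 4, some of which overlap and hold the same 2 cores. Members were chosen as genes of glycolysis and the hypoxia response, many of them known HIF targets. Their higher share is thus not a separate test.

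**Figure D1:**
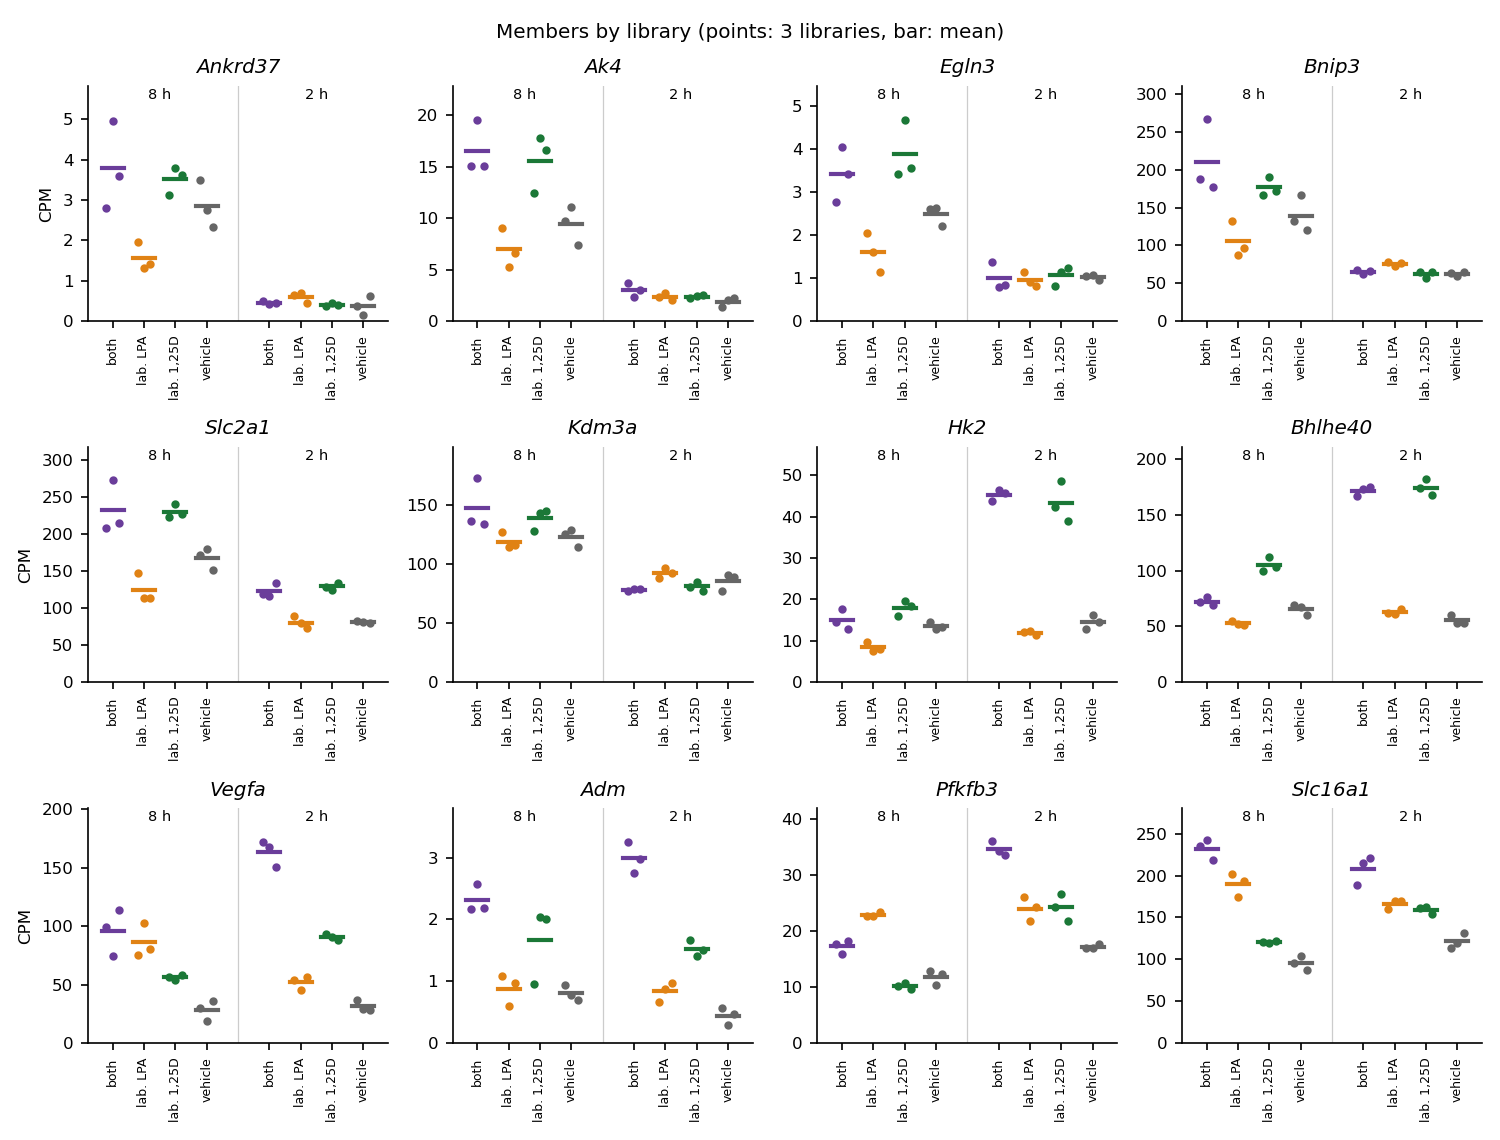
CPM of 12 members in every library (points) with the group mean (bar), 8 h groups at the left and 2 h groups at the right of each panel, in the order both agents, labelled LPA, labelled 1,25D and vehicle; the vertical axes are linear and start at 0. Ankrd37, Ak4, Egln3, Bnip3, Slc2a1 and Kdm3a were higher at 8 h in vehicle, whereas Hk2, Bhlhe40, Vegfa, Adm and Pfkfb3 had their highest means at 2 h, with both agents or in libraries labelled 1,25D.

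The treatments differed in how many members they moved. At 8 h, both agents against vehicle gave 19 members higher and 1 lower (54.1%). Of all genes tested 16.8% passed there, 9.54% higher and 7.25% lower. Libraries labelled LPA gave 4 members higher and 9 lower against vehicle (35.1%), with 12% of all genes, 6.62% higher and 5.38% lower. Libraries labelled 1,25D gave 12 members higher and 2 lower (37.8%), with 16.2% of all genes, 7.9% higher and 8.32% lower. The members' median log2 fold change was 0.35 with both agents, -0.28 in libraries labelled LPA and 0.22 in libraries labelled 1,25D, while the median of all genes tested lay between 0 and 0.03 in these comparisons. The 3 comparisons share their vehicle libraries. At 2 h, both agents gave 8 members higher and 4 lower (32.4%), with 19.9% of all genes, 9.88% higher and 10% lower. Libraries labelled LPA gave 2 higher (5.41%), with 0.792% of all genes, 0.597% higher and 0.195% lower. Libraries labelled 1,25D gave 7 higher and 3 lower (27.0%), with 13.9% of all genes, 7.06% higher and 6.85% lower. The members' medians at 2 h were 0.06 with both agents, 0.07 in libraries labelled LPA and 0 in libraries labelled 1,25D.

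The counts at 8 h depended on single libraries. For libraries labelled LPA the count of 13 became 24 without their replicate 1, and 8 without their replicate 2, their replicate 3 or vehicle replicate 2. For libraries labelled 1,25D the count of 14 became 8 without their replicate 2 or 3. For both agents the count of 20 became 14 without replicate 2 with both agents, and 16 without replicates 2 of both agents and vehicle. At 2 h the count of 2 for libraries labelled LPA became 1 without vehicle replicate 1 or their replicate 1 or 3.

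**Figure D2:**
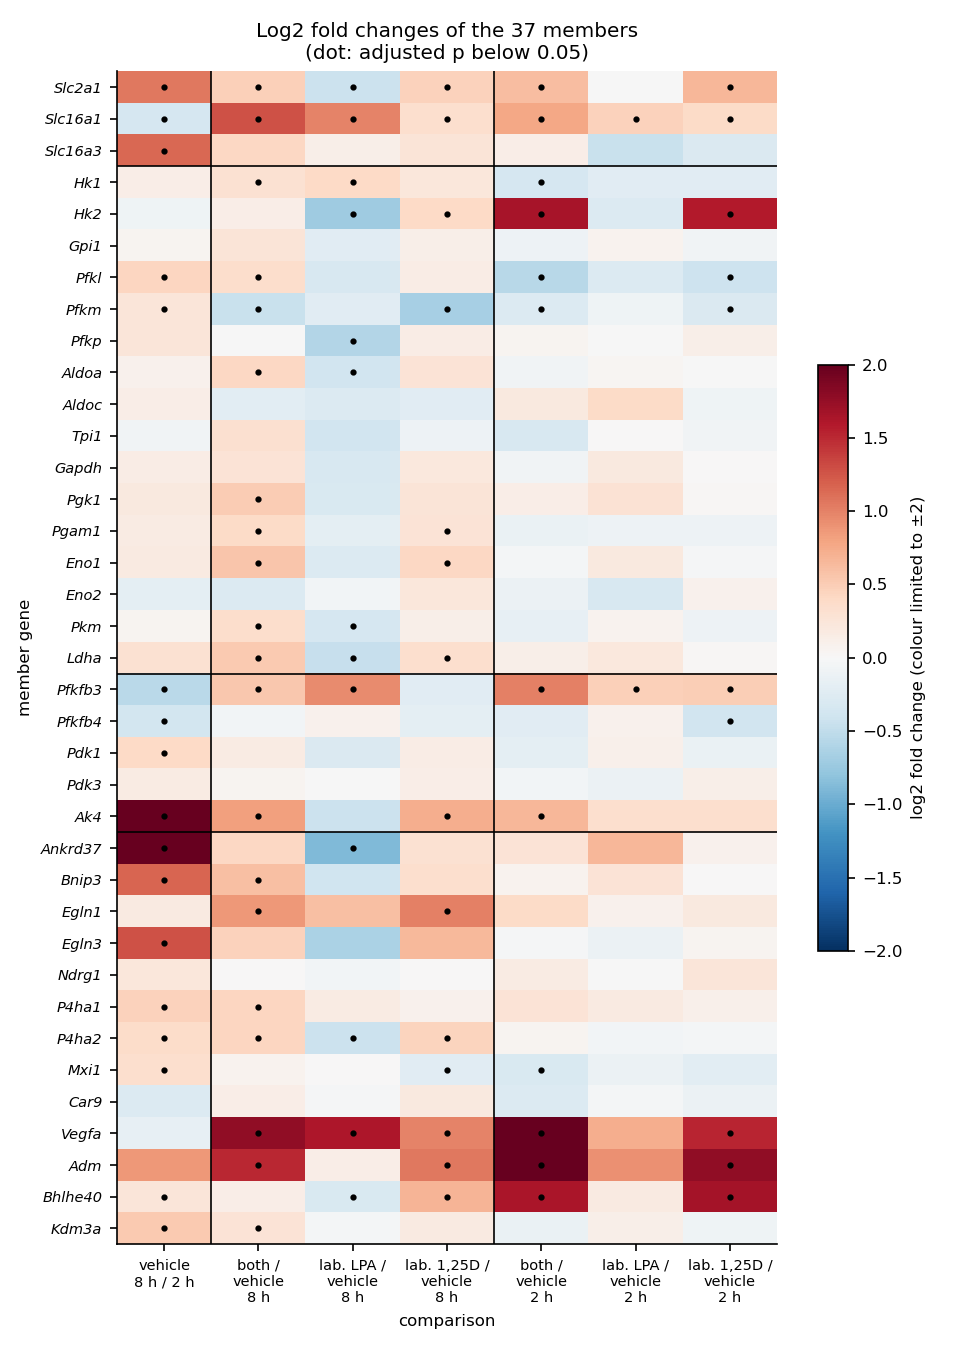
Log2 fold changes (colour, limited to ±2) of the 37 members (rows, by role, divided by horizontal lines) in 7 comparisons (columns); a dot marks an adjusted p below 0.05. The column for vehicle at 8 h against 2 h is darkest at Ankrd37 and Ak4, and the enzyme rows carry calls mainly in the 8 h columns, red with both agents and blue in libraries labelled LPA.

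Slc16a1 and Slc2a1, the abundant transporters of lactate and glucose, both rose with both agents. Slc16a1 had 235, 243 and 219 CPM with both agents at 8 h, 202, 174 and 194 CPM in libraries labelled LPA, 121, 120 and 122 CPM in libraries labelled 1,25D, and 95.8, 104 and 87.2 CPM in vehicle libraries. The 4 groups did not overlap. Against vehicle, the log2 fold change was 1.28 ± 0.08 with both agents (2.43-fold, adjusted p = 4.8e-11), 0.99 ± 0.08 in libraries labelled LPA (adjusted p = 5.2e-09) and 0.34 ± 0.08 in libraries labelled 1,25D (adjusted p = 0.0037). At 2 h it had 189, 215 and 221 CPM with both agents, 160, 170 and 170 CPM in libraries labelled LPA, 161, 163 and 154 CPM in libraries labelled 1,25D, and 113, 119 and 132 CPM in vehicle libraries. All 3 treated groups lay above vehicle, by a log2 of 0.78 ± 0.08 with both agents (adjusted p = 1.3e-07), 0.46 ± 0.08 in libraries labelled LPA (adjusted p = 0.0021) and 0.39 ± 0.08 in libraries labelled 1,25D (adjusted p = 0.001). The call in libraries labelled LPA at 2 h was lost without vehicle replicate 1. Slc16a1 was past the threshold in all 6 comparisons with vehicle, and Slc16a3 in none of them.

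Slc2a1, GLUT1, had 208, 274 and 215 CPM with both agents at 8 h, 148, 113 and 113 CPM in libraries labelled LPA, 224, 241 and 227 CPM in libraries labelled 1,25D, and 172, 180 and 152 CPM in vehicle libraries. Both agents (log2 0.47 ± 0.11, adjusted p = 0.0033) and libraries labelled 1,25D (log2 0.46 ± 0.11, adjusted p = 0.0054) lay above every vehicle library. Libraries labelled LPA lay below vehicle (log2 -0.43 ± 0.11, adjusted p = 0.01), a call lost without vehicle replicate 2 or their replicate 2 or 3. At 2 h Slc2a1 had 119, 117 and 134 CPM with both agents, 88.6, 79.3 and 73.0 CPM in libraries labelled LPA, 129, 125 and 134 CPM in libraries labelled 1,25D, and 82.9, 80.6 and 79.6 CPM in vehicle libraries. Both agents (log2 0.61 ± 0.11, adjusted p = 0.00029) and libraries labelled 1,25D (log2 0.67 ± 0.11, adjusted p = 0.00015) lay above every vehicle library, while libraries labelled LPA overlapped with vehicle (log2 -0.01 ± 0.11, adjusted p = 0.97). Both agents minus libraries labelled 1,25D came to a log2 of -0.07 ± 0.11 at 2 h and 0.01 ± 0.11 at 8 h.

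Among the 16 enzyme genes at 8 h, 8 were higher and 1 lower with both agents, against 9.54% and 7.25% of all genes tested. In libraries labelled LPA 1 was higher and 5 lower, against 6.62% and 5.38% of all genes. Libraries labelled 1,25D had 4 higher and 1 lower, against 7.9% and 8.32% of all genes. The rises with both agents covered Hk1, Pfkl, Aldoa, Pgk1, Pgam1, Eno1, Pkm and Ldha. When the compared groups were fitted alone, none of these 8 rises passed, nor did the fall of Pfkm. That fit also lost the calls of Hk1, Aldoa, Pkm and Ldha in libraries labelled LPA. In libraries labelled 1,25D it lost those of Hk2, Pgam1 and Ldha. Eno1, the enolase that makes phosphoenolpyruvate, had 1965, 2681 and 2016 CPM with both agents, 1444, 1109 and 1182 CPM in libraries labelled LPA, 2016, 2058 and 1988 CPM in libraries labelled 1,25D, and 1500, 1661 and 1390 CPM in vehicle libraries. Both agents (log2 0.55 ± 0.10, adjusted p = 0.00048) and libraries labelled 1,25D (log2 0.41 ± 0.10, adjusted p = 0.008) lay above every vehicle library. Libraries labelled LPA overlapped with vehicle and did not pass in edgeR (log2 -0.28 ± 0.10, adjusted p = 0.072), while DESeq2 called them lower. Without replicates 2 of both agents and vehicle, the log2 for both agents was 0.46, still past the threshold.

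Ldha, which turns pyruvate into lactate, had 1565, 2121 and 1496 CPM with both agents, 1030, 761 and 832 CPM in libraries labelled LPA, 1460, 1631 and 1470 CPM in libraries labelled 1,25D, and 1122, 1364 and 1120 CPM in vehicle libraries. It was higher with both agents (log2 0.52 ± 0.11, adjusted p = 0.0022) and in libraries labelled 1,25D (log2 0.34 ± 0.11, adjusted p = 0.047). It was lower in libraries labelled LPA (log2 -0.46 ± 0.11, adjusted p = 0.01). The call in libraries labelled 1,25D was lost without vehicle replicate 1 or 3 or any 1 of their own libraries. The call in libraries labelled LPA was lost without vehicle replicate 2 or their replicate 2 or 3. The other abundant enzymes had log2 fold changes with both agents of 0.51 for Pgk1, 0.41 for Aldoa, 0.39 for Pgam1 and 0.35 for Pkm, all past the threshold. In libraries labelled LPA they were -0.30 for Pgk1, -0.38 for Aldoa, -0.20 for Pgam1 and -0.33 for Pkm, of which those of Aldoa and Pkm passed. The rises of Aldoa and Pkm were lost without vehicle replicate 1 or replicate 2 with both agents, and their falls without the same libraries as that of Ldha. Gapdh had 9431, 12440 and 9533 CPM with both agents, 7810, 6023 and 6943 CPM in libraries labelled LPA, 9920, 10317 and 9626 CPM in libraries labelled 1,25D, and 8450, 9834 and 7565 CPM in vehicle libraries. It passed in no comparison with vehicle in edgeR, whereas DESeq2 called it in libraries labelled LPA and the fit with no filter on low counts also with both agents, both at 8 h. It was higher with both agents than in libraries labelled LPA (log2 0.60 ± 0.11, adjusted p = 0.00052).

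Summed without Gapdh, the enzyme genes gave 7119, 8160 and 7099 TPM with both agents at 8 h, 5522, 4887 and 4768 TPM in libraries labelled LPA, 6924, 7404 and 7261 TPM in libraries labelled 1,25D, and 5771, 5564 and 6061 TPM in vehicle libraries. Both agents and libraries labelled 1,25D lay above every vehicle library, and libraries labelled LPA lay below every one. At 2 h the same sum was 4974 to 5540 TPM with both agents, 5400 to 6182 TPM in libraries labelled LPA, 4980 to 5653 TPM in libraries labelled 1,25D and 5445 to 5931 TPM in vehicle libraries, and all 4 groups overlapped. These sums are dominated by Pkm, Aldoa, Eno1 and Ldha and are given with no test.

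**Figure D3:**
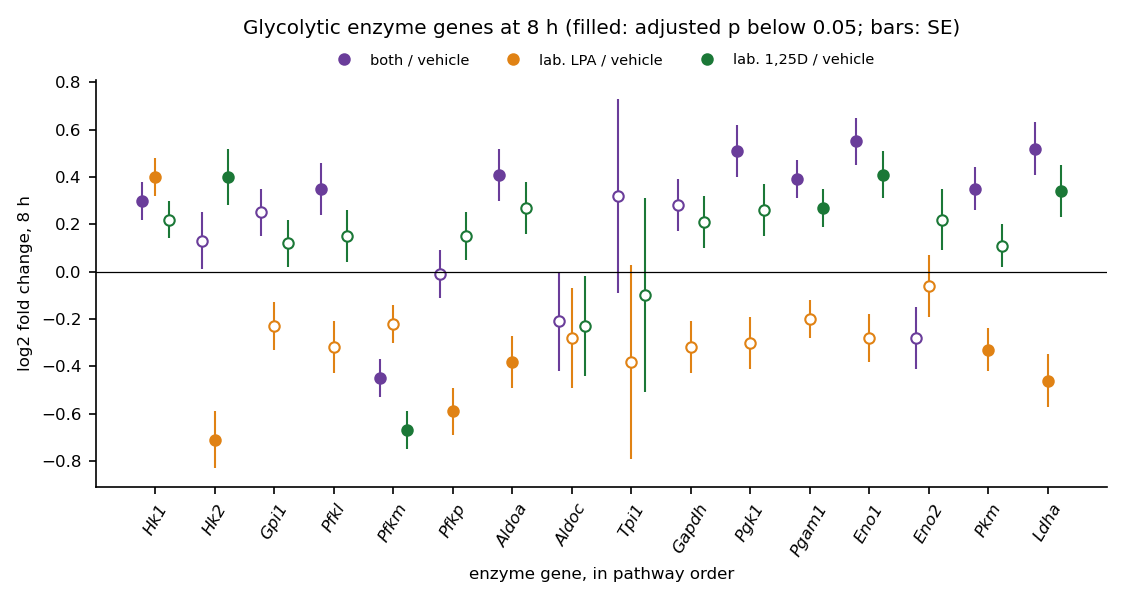
Log2 fold change against vehicle at 8 h (points, with SE bars) for the 16 enzyme genes in pathway order, for both agents, libraries labelled LPA and libraries labelled 1,25D; filled points have an adjusted p below 0.05. From Aldoa to Ldha the abundant enzymes lie above 0 with both agents (0.28 to 0.55) and below 0 in libraries labelled LPA, while Pfkm lies below 0 in all 3 groups.

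Hexokinase and phosphofructokinase act at the regulated entry steps. Hk2, the inducible hexokinase, was the enzyme gene that rose at 2 h. It had 43.8, 46.4 and 45.6 CPM with both agents, 12.0, 12.3 and 11.4 CPM in libraries labelled LPA, 42.4, 48.7 and 38.9 CPM in libraries labelled 1,25D, and 12.7, 16.2 and 14.4 CPM in vehicle libraries. Both agents (3.13-fold, log2 1.65 ± 0.12, adjusted p = 1.3e-09) and libraries labelled 1,25D (log2 1.59 ± 0.12, adjusted p = 2.9e-09) stood above every library of the other 2 groups. At 8 h it had 14.4, 17.6 and 12.9 CPM with both agents, 9.59, 7.59 and 7.85 CPM in libraries labelled LPA, 16.0, 19.7 and 18.3 CPM in libraries labelled 1,25D, and 14.6, 12.8 and 13.4 CPM in vehicle libraries. The group with both agents overlapped with vehicle (log2 0.13 ± 0.12, adjusted p = 0.54). Libraries labelled 1,25D were above it (log2 0.40 ± 0.12, adjusted p = 0.025, lost without vehicle replicate 2 or their replicate 2 or 3). Libraries labelled LPA were below it (log2 -0.71 ± 0.12, adjusted p = 0.00037).

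Hk1, the constitutive hexokinase, was lower at 2 h with both agents, where Hk2 was higher. It had 91.1, 76.9 and 78.1 CPM with both agents at 2 h, against 110, 97.2 and 103 CPM in vehicle libraries (log2 -0.33 ± 0.08, adjusted p = 0.0064). Libraries labelled LPA, where Hk2 was not higher, had 91.1, 86.9 and 86.8 CPM of Hk1. Those labelled 1,25D had 86.1, 90.1 and 90.7 CPM. Both lay below every vehicle library, and neither passed in the fit of all 24 libraries. At 8 h Hk1 had 139, 133 and 146 CPM with both agents, 148, 154 and 145 CPM in libraries labelled LPA, 127, 134 and 134 CPM in libraries labelled 1,25D, and 118, 94.6 and 127 CPM in vehicle libraries. It was higher with both agents (log2 0.30 ± 0.08, adjusted p = 0.015) and in libraries labelled LPA (log2 0.40 ± 0.08, adjusted p = 0.0026). The call with both agents was lost without vehicle replicate 2 or replicate 3 with both agents. As a share of Hk1 and Hk2 TPM, Hk2 made up 27.7% ± 2.7 with both agents, 8.91% ± 0.15 in libraries labelled LPA, 25.0% ± 2.3 in libraries labelled 1,25D and 8.78% ± 1.5 in vehicle libraries at 2 h (SD, n = 3 each). At 8 h it made up 6.87% ± 1.3 with both agents, 3.66% ± 0.52 in libraries labelled LPA, 8.46% ± 0.79 in libraries labelled 1,25D and 7.90% ± 0.74 in vehicle libraries, so the high shares were seen at the earlier time.

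The 3 phosphofructokinase genes, which encode the committing step, did not move as one. Pfkm, the muscle isoform, had 63.5, 70.6 and 55.3 CPM with both agents at 8 h, 79.1, 70.8 and 73.2 CPM in libraries labelled LPA, 51.6, 56.1 and 55.2 CPM in libraries labelled 1,25D, and 82.3, 84.8 and 91.9 CPM in vehicle libraries. It was lower with both agents (log2 -0.45 ± 0.08, adjusted p = 0.00028) and in libraries labelled 1,25D (log2 -0.67 ± 0.08, adjusted p = 6.9e-06), and all libraries of both groups lay below vehicle. Pfkl, the liver isoform, had 203, 257 and 195 CPM with both agents at 8 h, against 175, 168 and 171 CPM in vehicle libraries (log2 0.35 ± 0.11, adjusted p = 0.029), a call lost without any 1 vehicle library or replicate 2 with both agents. Pfkp, the platelet isoform, was lower in libraries labelled LPA, at 38.1, 29.4 and 31.0 CPM, against 47.1, 51.9 and 49.0 CPM in vehicle libraries (log2 -0.59 ± 0.10, adjusted p = 0.00020). Of the summed TPM of the 3 genes at 8 h, Pfkm made up 20.4% ± 1.4 with both agents, 31.2% ± 2.1 in libraries labelled LPA, 19.4% ± 1.3 in libraries labelled 1,25D and 30.9% ± 0.78 in vehicle libraries (SD, n = 3 each).

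At 2 h Pfkl was past the threshold as lower with both agents and in libraries labelled 1,25D. It had 97.4, 78.8 and 84.3 CPM with both agents, 101, 83.7 and 102 CPM in libraries labelled 1,25D, and 127, 121 and 132 CPM in vehicle libraries. Libraries labelled LPA, where Hk2 was 0.824-fold, also lay below every vehicle library for Pfkl, at 116, 101 and 96.5 CPM. There Pfkl was 0.825-fold and did not pass on counts, but passed with length-scaled TPM. Its log2 fold change was -0.55 ± 0.11 with both agents (adjusted p = 0.001) and -0.41 ± 0.11 in libraries labelled 1,25D (adjusted p = 0.015). Pfkm had 56.6, 61.5 and 62.9 CPM with both agents, 56.4, 56.6 and 66.2 CPM in libraries labelled 1,25D, and 73.2, 74.2 and 71.7 CPM in vehicle libraries. Its log2 fold change was -0.27 ± 0.08 with both agents (adjusted p = 0.018) and -0.29 ± 0.08 in libraries labelled 1,25D (adjusted p = 0.017). Both genes lay below every vehicle library in both groups. The Pfkm call was lost with both agents without vehicle replicate 2 or replicate 1 with both agents, and in libraries labelled 1,25D without vehicle replicate 2 or their replicate 1 or 2. The Pfkl call in libraries labelled 1,25D was lost without vehicle replicate 3 or their replicate 2.

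**Figure D4:**
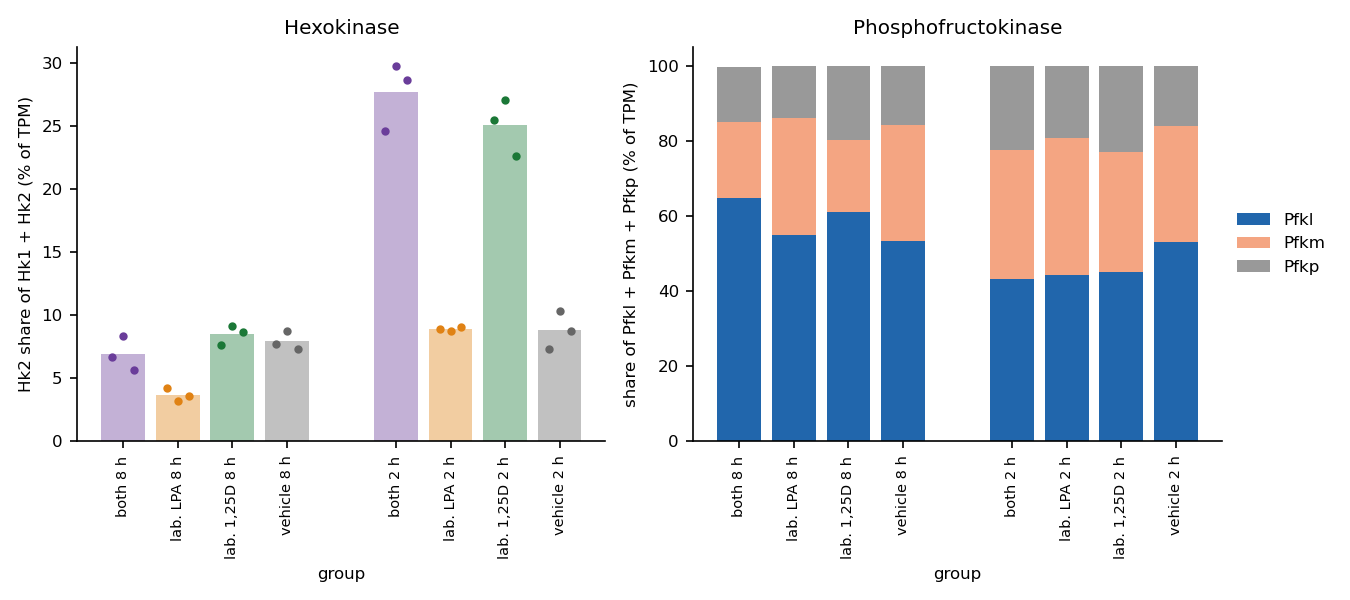
Left, Hk2 as a percentage of summed Hk1 and Hk2 TPM (bars, group means; points, libraries); right, mean shares of Pfkl, Pfkm and Pfkp in their summed TPM; groups run from both agents to vehicle, 8 h at the left of 2 h. The Hk2 share stands out at 2 h with both agents (27.7%) and in libraries labelled 1,25D (25.0%), and the Pfkm share is smallest at 8 h in the same groups (20.4% and 19.4%).

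Of the 5 regulators, Pfkfb3, Ak4 and Pfkfb4 passed in at least 1 treatment against vehicle. Pfkfb3 had 17.6, 15.9 and 18.2 CPM with both agents at 8 h, 22.6, 22.6 and 23.4 CPM in libraries labelled LPA, 10.1, 10.7 and 9.68 CPM in libraries labelled 1,25D, and 12.9, 10.3 and 12.3 CPM in vehicle libraries. It was higher with both agents (log2 0.54 ± 0.09, adjusted p = 0.00019) and higher still in libraries labelled LPA (log2 0.95 ± 0.09, adjusted p = 1.6e-07). Both agents lay below libraries labelled LPA (log2 -0.41 ± 0.09, adjusted p = 0.0026). At 2 h it had 36.1, 34.2 and 33.6 CPM with both agents, 26.0, 21.7 and 24.2 CPM in libraries labelled LPA, 24.3, 26.6 and 21.7 CPM in libraries labelled 1,25D, and 17.0, 17.0 and 17.6 CPM in vehicle libraries. All 3 treated groups were above vehicle, by a log2 of 1.01 ± 0.09 with both agents (adjusted p = 3.5e-08), 0.48 ± 0.09 in libraries labelled LPA (adjusted p = 0.0083) and 0.49 ± 0.09 in libraries labelled 1,25D (adjusted p = 0.00065). Both agents were above each single treatment at 2 h, by a log2 of 0.53 ± 0.09 against libraries labelled LPA (adjusted p = 0.0002) and 0.52 ± 0.09 against libraries labelled 1,25D (adjusted p = 0.0027). The call in libraries labelled LPA at 2 h was lost without their replicate 1 or 3.

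Ak4 had 15.1, 19.5 and 15.1 CPM with both agents at 8 h, 9.03, 5.29 and 6.65 CPM in libraries labelled LPA, 12.4, 17.8 and 16.6 CPM in libraries labelled 1,25D, and 9.73, 11.1 and 7.38 CPM in vehicle libraries. It was above vehicle with both agents (log2 0.82 ± 0.20, adjusted p = 0.0055) and in libraries labelled 1,25D (log2 0.73 ± 0.20, adjusted p = 0.015), and libraries labelled LPA overlapped with vehicle. The call in libraries labelled 1,25D was lost without vehicle replicate 3 or their replicate 2 or 3. At 2 h both agents gave 3.67, 2.30 and 2.98 CPM, against 1.39, 2.00 and 2.24 CPM in vehicle libraries. The groups did not overlap, and the difference lay at the threshold (log2 0.67 ± 0.24, adjusted p = 0.05 when rounded). It was lost without vehicle replicate 1 or 2 or replicate 1 or 3 with both agents. Pfkfb4 was lower in libraries labelled 1,25D at 2 h, at 12.3, 10.2 and 10.3 CPM, against 13.8, 13.8 and 15.0 CPM in vehicle libraries (log2 -0.38 ± 0.10, adjusted p = 0.012), a call lost without vehicle replicate 3 or their replicate 2 or 3. Pdk1 and Pdk3, kinases that switch off pyruvate dehydrogenase, passed in no treatment against vehicle in edgeR, with log2 fold changes between -0.29 and 0.16. DESeq2 called Pdk1 in libraries labelled LPA at 8 h, as did edgeR with median-of-ratios scaling or without mitochondrially encoded genes.

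The hypoxia-response group held the largest treatment effects, in genes for secreted factors. Vegfa, the main angiogenic growth factor, had 172, 168 and 151 CPM with both agents at 2 h, 54.1, 45.0 and 56.7 CPM in libraries labelled LPA, 93.4, 90.8 and 87.9 CPM in libraries labelled 1,25D, and 36.7, 29.4 and 28.6 CPM in vehicle libraries. The 4 groups did not overlap, and both agents gave a 5.18-fold rise (log2 2.37 ± 0.18, adjusted p = 3.6e-09). Libraries labelled 1,25D were above vehicle (log2 1.52 ± 0.18, adjusted p = 3e-06), and libraries labelled LPA had a log2 of 0.72 ± 0.18 that did not pass in edgeR (adjusted p = 0.061) and passed in DESeq2. Vegfa at 8 h had 99.5, 74.5 and 114 CPM with both agents, 75.1, 103 and 80.1 CPM in libraries labelled LPA, 56.1, 53.7 and 58.4 CPM in libraries labelled 1,25D, and 30.1, 18.7 and 36.0 CPM in vehicle libraries. All 3 treated groups were then past the threshold, with a log2 of 1.77 ± 0.18 with both agents (3.40-fold, adjusted p = 2.6e-07), 1.61 ± 0.18 in libraries labelled LPA (adjusted p = 1.4e-06) and 0.99 ± 0.18 in libraries labelled 1,25D (adjusted p = 0.00061). Both agents overlapped with libraries labelled LPA.

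Adm, which encodes the vasodilator adrenomedullin, was low, with 3.25, 2.76 and 2.98 CPM with both agents at 2 h, 1.67, 1.40 and 1.50 CPM in libraries labelled 1,25D, and 0.568, 0.290 and 0.466 CPM in vehicle libraries. The 3 groups did not overlap, and the log2 fold change was 2.75 ± 0.30 with both agents (adjusted p = 5.8e-07) and 1.78 ± 0.30 in libraries labelled 1,25D (adjusted p = 0.00027). Adm at 8 h had 2.17, 2.58 and 2.19 CPM with both agents, against 0.946, 0.776 and 0.699 CPM in vehicle libraries (log2 1.51 ± 0.28, adjusted p = 0.00045). Libraries labelled 1,25D also passed at 8 h (log2 1.05 ± 0.28, adjusted p = 0.015), a call lost without vehicle replicate 2 or their replicate 2 or 3. In libraries labelled LPA, Adm was 1.89-fold of vehicle at 2 h and 1.09-fold at 8 h, and passed at neither time.

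Bhlhe40, a transcriptional repressor, rose at 2 h with both agents and in libraries labelled 1,25D. It had 167, 173 and 175 CPM with both agents at 2 h, 61.7, 61.0 and 65.1 CPM in libraries labelled LPA, 174, 182 and 168 CPM in libraries labelled 1,25D, and 59.9, 53.4 and 52.8 CPM in vehicle libraries. Its log2 fold change was 1.63 ± 0.07 with both agents (adjusted p = 1.4e-13), 0.18 ± 0.07 in libraries labelled LPA (adjusted p = 0.24) and 1.66 ± 0.07 in libraries labelled 1,25D (adjusted p = 1.3e-13). The groups with both agents and labelled 1,25D overlapped with each other and lay far above the rest. Bhlhe40 at 8 h had 71.4, 76.0 and 69.2 CPM with both agents, 54.4, 52.1 and 51.3 CPM in libraries labelled LPA, 100, 112 and 103 CPM in libraries labelled 1,25D, and 69.5, 66.9 and 59.8 CPM in vehicle libraries. Libraries labelled 1,25D were above vehicle (log2 0.68 ± 0.07, adjusted p = 4.5e-07) and libraries labelled LPA below it (log2 -0.31 ± 0.07, adjusted p = 0.0026). Both agents did not pass (adjusted p = 0.16).

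Bnip3, Ankrd37 and Egln3, which rose with time in vehicle, showed treatment differences at 8 h. Bnip3 had 188, 267 and 177 CPM with both agents at 8 h, 132, 87.8 and 96.1 CPM in libraries labelled LPA, 167, 191 and 172 CPM in libraries labelled 1,25D, and 132, 166 and 120 CPM in vehicle libraries. It passed with both agents (log2 0.60 ± 0.14, adjusted p = 0.0047), a call lost without replicate 2 with both agents, and DESeq2 also called it in libraries labelled LPA. Ankrd37 had 2.81, 4.96 and 3.60 CPM with both agents, 1.96, 1.30 and 1.40 CPM in libraries labelled LPA, 3.13, 3.80 and 3.61 CPM in libraries labelled 1,25D, and 3.49, 2.76 and 2.32 CPM in vehicle libraries. It passed only in libraries labelled LPA, where it was lower (log2 -0.88 ± 0.28, adjusted p = 0.047), a call lost without vehicle replicate 1 or 2 or replicate 2 or 3 labelled LPA. Egln3 passed against vehicle in no group in edgeR, while DESeq2 called it in libraries labelled 1,25D. It had 2.78, 4.06 and 3.42 CPM with both agents, 2.05, 1.61 and 1.14 CPM in libraries labelled LPA, 3.43, 4.69 and 3.56 CPM in libraries labelled 1,25D, and 2.60, 2.64 and 2.21 CPM in vehicle libraries. Between both agents and libraries labelled LPA, all 3 genes were higher with both agents, by a log2 of 1.00 ± 0.14 for Bnip3 (adjusted p = 4e-05), 1.28 ± 0.28 for Ankrd37 (adjusted p = 0.0024) and 1.09 ± 0.23 for Egln3 (adjusted p = 0.002). At 2 h none of the 3 passed against vehicle, with log2 fold changes between -0.11 and 0.66.

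Egln1, the main HIF prolyl hydroxylase in oxygenated cells, had 54.4, 39.5 and 59.4 CPM with both agents at 8 h, 40.6, 51.8 and 35.3 CPM in libraries labelled LPA, 57.2, 55.1 and 57.5 CPM in libraries labelled 1,25D, and 30.5, 17.1 and 36.4 CPM in vehicle libraries. Libraries labelled LPA overlapped with vehicle and did not pass in edgeR (log2 0.60 ± 0.22, adjusted p = 0.072), while DESeq2 called them higher. The other treated groups lay above every vehicle library, by a log2 of 0.87 ± 0.22 with both agents (adjusted p = 0.0065) and 1.01 ± 0.22 in libraries labelled 1,25D (adjusted p = 0.0027). P4ha2, a subunit of the collagen prolyl hydroxylase, had 93.9, 122 and 88.0 CPM with both agents, 64.5, 47.5 and 55.8 CPM in libraries labelled LPA, 96.4, 107 and 104 CPM in libraries labelled 1,25D, and 73.4, 78.9 and 73.0 CPM in vehicle libraries. It was higher with both agents (log2 0.43 ± 0.10, adjusted p = 0.0049, lost without replicate 2 with both agents) and in libraries labelled 1,25D (log2 0.45 ± 0.10, adjusted p = 0.0047). It was lower in libraries labelled LPA (log2 -0.43 ± 0.10, adjusted p = 0.0086). Its partner P4ha1 passed with both agents alone (log2 0.43 ± 0.10, adjusted p = 0.0043). Mxi1, an antagonist of MYC, was lower with both agents at 2 h, at 40.9, 35.4 and 44.1 CPM, against 49.4, 47.9 and 51.0 CPM in vehicle libraries (log2 -0.30 ± 0.08, adjusted p = 0.0069), a call lost without replicate 2 with both agents. Its small fall in libraries labelled 1,25D at 8 h (log2 -0.23 ± 0.08, adjusted p = 0.048) was lost without any 1 of the 6 libraries compared. Kdm3a was higher with both agents at 8 h (log2 0.27 ± 0.09, adjusted p = 0.036), a call lost without vehicle replicate 1 or 3 or replicate 2 with both agents. Ndrg1, a stress-responsive gene, and Car9, the cell-surface carbonic anhydrase widely used as a hypoxia marker, passed in none of the comparisons with vehicle in edgeR, with log2 fold changes between -0.28 and 0.24. DESeq2 called Ndrg1 in libraries labelled 1,25D at 2 h, as did edgeR without mitochondrially encoded genes. Car9 had 51.4, 47.8 and 49.6 CPM with both agents at 8 h, against 43.1, 40.0 and 51.9 CPM in vehicle libraries.

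Both agents were also set against each single treatment. At 8 h, 22 members were higher and 2 lower with both agents than in libraries labelled LPA (64.9%), with 22.9% of all genes tested, 14% higher and 8.91% lower. Against libraries labelled 1,25D, 5 were higher and 2 lower (18.9%), with 9.17% of all genes, 5.74% higher and 3.43% lower. At 2 h, 7 were higher and 2 lower with both agents than in libraries labelled LPA (24.3%), with 18.7% of all genes, 9.22% higher and 9.48% lower. Against libraries labelled 1,25D, 3 were higher (8.11%), with 0.767% of all genes, 0.609% higher and 0.158% lower. The 3 were Vegfa (log2 0.85 ± 0.17, adjusted p = 0.016), Pfkfb3 (log2 0.52 ± 0.09, adjusted p = 0.0027) and Slc16a1 (log2 0.39 ± 0.08, adjusted p = 0.01). All 3 were also higher with both agents than in libraries labelled 1,25D at 8 h, Vegfa by a log2 of 0.78 ± 0.18 (adjusted p = 0.0058), Pfkfb3 by 0.76 ± 0.09 (adjusted p = 5.2e-06) and Slc16a1 by 0.94 ± 0.08 (adjusted p = 1e-08). At 2 h the Vegfa call was lost without any 1 library labelled 1,25D or replicate 1 or 2 with both agents. The Slc16a1 call was lost without replicate 3 labelled 1,25D or replicate 2 or 3 with both agents. Without replicate 3 labelled 1,25D or replicate 2 with both agents, Pfkfb3 was the 1 call left. At 8 h the count became 4 without replicate 2 or 3 labelled 1,25D.

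Whether both agents differed from the sum of the single effects was tested as an interaction on the log2 scale. At 2 h, 0 members passed in edgeR, while 0.0365% of all genes did, 0.0244% above the sum and 0.0122% below it. Among the members, 1 had an unadjusted p below 0.05, and DESeq2 also called 0. At 8 h, 6 members were above the sum and 1 below it (18.9%). Of all genes 7.68% passed, 4.06% above and 3.62% below. Ldha (0.64 ± 0.16, adjusted p = 0.037), Pkm (0.58 ± 0.13, adjusted p = 0.031), Pgk1 (0.55 ± 0.16, adjusted p = 0.048), Pfkl (0.53 ± 0.16, adjusted p = 0.048), Aldoa (0.52 ± 0.15, adjusted p = 0.044) and Pfkm (0.43 ± 0.11, adjusted p = 0.040) were above it, and Vegfa (-0.83 ± 0.25, adjusted p = 0.048) was below it. These calls were not stable. None of the 7 was left without vehicle replicate 2, without replicate 2 with both agents, without replicate 2 or 3 labelled LPA, or without any 1 library labelled 1,25D. There were 2 without replicate 1 with both agents and 3 without vehicle replicate 1, whereas 16 to 18 members passed without vehicle replicate 3, replicate 3 with both agents or replicate 1 labelled LPA. With replicates 2 of both agents and vehicle left out together, 0 passed, and Ldha, Pkm and Vegfa had interactions of 0.38, 0.39 and -0.44.

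Each treatment effect at 8 h was set against its 2 h value in the same fit. With both agents, 9 members had a greater log2 effect at 8 h and 3 a lower one (32.4%), with 9.68% of all genes, 5.57% greater and 4.11% lower. In libraries labelled LPA, 4 were greater and 8 lower (32.4%), with 6.76% of all genes, 3.76% greater and 3% lower. In libraries labelled 1,25D, 2 were greater and 3 lower (13.5%), with 4.17% of all genes, 1.33% greater and 2.84% lower. The effects on Hk2 and Bhlhe40 were smaller at 8 h. For Hk2 the difference was -1.51 ± 0.17 with both agents (adjusted p = 2.6e-06) and -1.18 ± 0.17 in libraries labelled 1,25D (adjusted p = 0.00013). For Bhlhe40 it was -1.49 ± 0.09 with both agents (adjusted p = 8.4e-10) and -0.98 ± 0.09 in libraries labelled 1,25D (adjusted p = 1.1e-06). With both agents Pfkl (0.90 ± 0.16, adjusted p = 0.00055), Hk1 (0.63 ± 0.12, adjusted p = 0.0012) and Pgam1 (0.53 ± 0.11, adjusted p = 0.0032) had greater effects at 8 h. The effects on Pfkl and Hk1 had opposite signs at the 2 times. In libraries labelled LPA, Hk1 (0.62 ± 0.12, adjusted p = 0.0031) and Slc16a1 (0.53 ± 0.11, adjusted p = 0.0048) had greater effects at 8 h. Ldha (-0.67 ± 0.16, adjusted p = 0.016) and Pfkp (-0.58 ± 0.14, adjusted p = 0.015) had lower ones. The count in libraries labelled LPA ranged between 4 without vehicle replicate 2 at 8 h and 19 without their replicate 1 at 8 h, and the Ldha call was lost without the same vehicle library. It was 5 to 7 without any 1 library labelled LPA at 2 h, replicate 2 or 3 labelled LPA at 8 h, or vehicle replicate 1 or 2 at 2 h. In libraries labelled 1,25D the count of 5 became 3 without vehicle replicate 1 or 3 at 2 h, their replicate 1 or 2 at 2 h, or their replicate 2 or 3 at 8 h. The calls lost were those of Pfkl and Hk1, and the Pfkl call was lost in 11 of the 12 fits that left out 1 library and the Hk1 call in 8 of 12.

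Other genes of the pathway were examined through lists chosen by function. Of 7 tested genes of HIF subunits and oxygen sensing, Hif1a, the oxygen-regulated subunit, was higher with both agents at 8 h (log2 0.33 ± 0.07, adjusted p = 0.00079) and at 2 h (log2 0.63 ± 0.07, adjusted p = 3.2e-07) and in libraries labelled 1,25D at 2 h (log2 0.50 ± 0.07, adjusted p = 1.4e-05). Arnt2, a partner subunit, was higher at 8 h with both agents (log2 1.22 ± 0.24, adjusted p = 0.00082) and in libraries labelled LPA (log2 1.76 ± 0.24, adjusted p = 1.8e-05). Arnt, the usual partner of HIF, was lower with both agents at 2 h (log2 -0.16 ± 0.06, adjusted p = 0.046) and in libraries labelled 1,25D at 8 h (log2 -0.24 ± 0.06, adjusted p = 0.0066). In vehicle at 8 h against 2 h, 0 of the 7 passed in edgeR while 4 had an unadjusted p below 0.05, and Hif1a had a log2 of -0.17 ± 0.07 (adjusted p = 0.094).

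Of 33 tested genes on a list of other HIF targets, 17 were higher and 1 lower with both agents at 8 h, 8 higher and 5 lower in libraries labelled LPA, and 11 higher and 3 lower in libraries labelled 1,25D. In vehicle 7 were higher and 3 lower at 8 h than at 2 h. Of all genes tested, 16.8% passed at 8 h with both agents, 12% in libraries labelled LPA, 16.2% in libraries labelled 1,25D and 14.6% in vehicle over time. The list's median log2 values were 0.35 with both agents, -0.02 in libraries labelled LPA, 0.23 in libraries labelled 1,25D and 0.19 in vehicle with time. At 2 h, 13 were higher and 2 lower with both agents, 3 higher in libraries labelled LPA, and 11 higher and 1 lower in libraries labelled 1,25D. Of all genes, 19.9% passed at 2 h with both agents, 0.792% in libraries labelled LPA and 13.9% in libraries labelled 1,25D. Loxl2, a collagen cross-linking enzyme, had log2 fold changes of 3.17 ± 0.23 with both agents (adjusted p = 1.3e-09), 1.92 ± 0.23 in libraries labelled LPA (adjusted p = 4.5e-06) and 0.93 ± 0.24 in libraries labelled 1,25D (adjusted p = 0.012) at 8 h. Ddit4, an inhibitor of mTORC1, rose at 8 h with both agents (log2 1.02 ± 0.11, adjusted p = 2.7e-07) and in libraries labelled LPA (log2 1.03 ± 0.11, adjusted p = 3.3e-07). It was also higher in vehicle at 8 h than at 2 h (log2 0.99 ± 0.11, adjusted p = 1.9e-06). Errfi1, a feedback inhibitor of the EGF receptor, had log2 fold changes of 2.92 ± 0.08 with both agents (adjusted p = 4e-16) and 2.90 ± 0.08 in libraries labelled 1,25D (adjusted p = 1.1e-15) at 2 h. In vehicle, Errfi1 was lower at 8 h than at 2 h (log2 -1.05 ± 0.08, adjusted p = 1.3e-08). Ccng2, a cyclin of cell cycle arrest, was higher (log2 1.10 ± 0.09, adjusted p = 4.4e-08).

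The steps around and past pyruvate were looked at next. Of 26 genes of pyruvate entry and the tricarboxylic acid cycle, 3 were higher and 3 lower with both agents at 8 h, 2 higher and 1 lower in libraries labelled LPA, and 3 lower in libraries labelled 1,25D. At 2 h, 4 were higher and 1 lower with both agents, 1 higher and 1 lower in libraries labelled LPA, and 1 higher and 1 lower in libraries labelled 1,25D. In vehicle 1 was higher at 8 h than at 2 h. Of all genes, 16.8% passed at 8 h with both agents, 12% in libraries labelled LPA and 16.2% in libraries labelled 1,25D, 14.6% passed in vehicle over time, and at 2 h 19.9% passed with both agents, 0.792% in libraries labelled LPA and 13.9% in libraries labelled 1,25D. Pdk4, a kinase that turns pyruvate dehydrogenase off, was higher in libraries labelled 1,25D at 2 h (log2 1.06 ± 0.08, adjusted p = 4.9e-09), and lower at 8 h with both agents (log2 -0.70 ± 0.08, adjusted p = 2.8e-06) and in libraries labelled LPA (log2 -0.35 ± 0.08, adjusted p = 0.0074). Pdp1, the phosphatase that turns the complex on, was higher with both agents at 8 h (log2 0.51 ± 0.08, adjusted p = 0.00013) and 2 h (log2 0.53 ± 0.08, adjusted p = 8.1e-05), and in libraries labelled LPA at 8 h (log2 0.50 ± 0.08, adjusted p = 0.00024) and 2 h (log2 0.49 ± 0.08, adjusted p = 0.0028). Of 18 tested genes of the pentose phosphate pathway and glycogen, 4 were higher and 1 lower with both agents at 8 h, and 5 higher and 1 lower in vehicle at 8 h against 2 h. In vehicle, the glycogen synthase gene Gys1 (log2 0.53 ± 0.10, adjusted p = 0.00098), the branching enzyme gene Gbe1 (log2 0.43 ± 0.08, adjusted p = 0.00092) and Ppp1r3c, which targets a phosphatase to glycogen (log2 1.54 ± 0.36, adjusted p = 0.0057), were higher at 8 h than at 2 h. Ppp1r3c was lower at 8 h with both agents (log2 -1.13 ± 0.35, adjusted p = 0.031) and in libraries labelled LPA (log2 -1.77 ± 0.37, adjusted p = 0.0021). Of 12 tested other isoforms of the glycolytic steps, 0 passed in edgeR with both agents or in libraries labelled 1,25D at either time, or in libraries labelled LPA at 2 h, and 1 had an unadjusted p below 0.05, with both agents at 8 h. Tigar, a fructose-2,6-bisphosphatase, was lower in vehicle at 8 h than at 2 h (log2 -0.57 ± 0.08, adjusted p = 6.8e-05).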

How the data were processed

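The deposited tables, 1 per library, gave estimated counts and TPM per Ensembl transcript, per the file headers. The authors used genome build mm39, per the submitters' processing notes; the quantifier and annotation were not given in the sources used here. RNA was total RNA from cultured cells, per the labels' protocols. Groups were taken from the labels, which go against the table names for the single treatments.

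Estimated counts were summed per gene and rounded, with gene names from GENCODE M21 on GRCm38 used for names alone (135078 of 139145 transcripts matched, holding 99.45 to 99.6% of counts). Aldoa has 2 gene identifiers, which were added up. Tests used edgeR 4.0.16 in R 4.3.3: quasi-likelihood F tests with robust estimation, TMM scaling, a filter at a minimum count of 10, all 8 groups in 1 fit and Benjamini-Hochberg adjustment over 16423 genes at 0.05. CPM uses TMM-scaled library sizes, and errors of log2 fold changes are SE. An estimated count carries ambiguity between similar transcripts that no printed error covers. Library totals were 32964439 to 33842037 counts, so low members carry more counting error. Libraries of a group differed by 7.08 to 133 times counting noise (chi-square per degree of freedom), so none was a copy of another. That measure cannot tell separate cultures from repeat preparations of the same culture. The statistics were tested on simulated counts.

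Members and lists were chosen with earlier results of these data known. Members were described with values in every library where they passed without overlap between the groups, up to 5 each way per treatment and 6 each way for vehicle over time, with others as descriptions. Interactions and time differences took up to 3 each way, and each other list up to 3 each way with the smallest p. Cyp24a1 and Vdr served as the check of the labels. Alternatives were DESeq2 1.42.0, its size factors, no filter, length-scaled TPM in place of counts, no mitochondrial genes, a fit of only the groups compared, a block for the replicate number, each library left out, and replicates 2 of vehicle and both agents at 8 h left out. Figures were drawn with matplotlib 3.10.9.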

Additional observations from a re-analysis of the deposited data

Results flagged for a closer look

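These members differed between groups in the effect itself, by the interaction or by the difference between the times. All values are differences of log2 fold changes with an adjusted p below 0.05 in edgeR's quasi-likelihood test over all genes, and no explanation was tested. At 8 h the effect of both agents was above the sum of the single effects for Ldha (0.64), Pkm (0.58) and Pfkm (0.43), and below it for Vegfa (-0.83).

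Differences between the times are the effect at 8 h minus that at 2 h, so a negative value says that the effect was lower at 8 h, not that it was nearer to 0. With both agents the difference was positive for Pfkl (0.90), Hk1 (0.63) and Pgam1 (0.53), and negative for Hk2 (-1.51), Bhlhe40 (-1.49) and Pfkfb3 (-0.46). In libraries labelled LPA it was positive for Hk1 (0.62), Slc16a1 (0.53) and Pfkfb3 (0.47), and negative for Ldha (-0.67), Pfkp (-0.58) and Bhlhe40 (-0.49). These last 3 genes were past the threshold below vehicle at 8 h and not at 2 h. In libraries labelled 1,25D it was positive for Pfkl (0.56) and Hk1 (0.43), and negative for Hk2 (-1.18), Bhlhe40 (-0.98) and Pfkfb3 (-0.71).

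Several of these calls depended on single libraries. Of 12 fits that left out 1 library, the interaction call was lost in 7 for Ldha, 7 for Pkm, 8 for Pfkm and 9 for Vegfa. Without replicates 2 of both agents and vehicle at 8 h, no interaction passed in edgeR. The adjusted p was then 0.29 for Ldha, 0.22 for Pkm, 0.27 for Pfkm and 0.34 for Vegfa. In libraries labelled LPA the Pfkfb3 call was lost without any 1 vehicle library at 2 h, vehicle replicate 2 at 8 h, or replicate 2 or 3 labelled LPA at either time. It was also lost without replicates 2 of both agents and vehicle at 8 h (adjusted p = 0.088 in edgeR). With both agents the Pfkfb3 call was lost without vehicle replicate 2 at 2 h, vehicle replicate 1 or 3 at 8 h, replicate 1 with both agents at 2 h or replicate 2 with both agents at 8 h. In libraries labelled 1,25D the Pfkl call was lost in 11 of 12 fits that left out 1 library and the Hk1 call in 8 of 12. The 3 time differences share the vehicle libraries.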

How the results depend on the processing

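No named member changed direction under any alternative. DESeq2 called all 71 named results, and 1 was lost with the replicate block, 1 with median-of-ratios scaling, 2 without mitochondrially encoded genes, 7 with length-scaled TPM, 8 with no filter and 24 when the compared groups were fitted alone.

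Counts of members called, fitted on the compared groups alone, were 16 for both agents against libraries labelled LPA at 2 h, and at 8 h 4 for both agents, 5 for libraries labelled LPA and 6 for libraries labelled 1,25D against vehicle and 0 for the interaction. They were 7 for vehicle over time, and 4 for both agents and 5 for libraries labelled LPA for the time differences. That fit takes the spread from fewer samples, those of the compared groups alone. It gained 7 calls for both agents against libraries labelled LPA at 2 h, where 9 passed in the main fit. For both agents against vehicle at 8 h it lost 16 calls, every enzyme call among them. The others lost were Slc2a1, Pfkfb3, Bnip3, Egln1, P4ha1, P4ha2 and Kdm3a. At 8 h, libraries labelled LPA gave 20 with DESeq2 and 20 with no filter, and libraries labelled 1,25D 9 with length-scaled TPM. The 8 h interaction gave 18 with DESeq2, 13 with no filter, 3 with length-scaled TPM, 4 without mitochondrially encoded genes and 0 without replicates 2 of both agents and vehicle. The time difference gave 7 in libraries labelled LPA with length-scaled TPM, and 8 in libraries labelled 1,25D with DESeq2, with no filter or without those replicates 2. The cause was not tested.

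Leaving out 1 library at a time gave at 8 h 14 to 20 members for both agents, 8 to 24 for libraries labelled LPA and 8 to 11 for libraries labelled 1,25D against vehicle, 22 to 24 for both agents against libraries labelled LPA, 4 to 9 for both agents against libraries labelled 1,25D, and 0 to 18 for the interaction. At 2 h it gave 10 to 12 for both agents, 1 to 2 for libraries labelled LPA and 7 to 10 for libraries labelled 1,25D against vehicle, 7 to 9 for both agents against libraries labelled LPA, and 1 to 2 for both agents against libraries labelled 1,25D. Vehicle over time gave 12 to 17. Time differences gave 8 to 15 for both agents, 4 to 19 for libraries labelled LPA and 3 to 4 for libraries labelled 1,25D.

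Replicate numbers showed no pairing over the libraries as a set. Deviations of same-numbered libraries correlated at a median r of 0 (84 pairs, -0.25 to 0.36, 6 over 0.1). For libraries of other numbers the median r was 0.01 (168 pairs, -0.31 to 0.22, 17 over 0.1). Of 24 libraries, 8 were closest to their own number. A median over all pairs cannot exclude pairing among some groups. With the replicate block, 20 members passed for both agents, 12 for libraries labelled LPA and 13 for libraries labelled 1,25D against vehicle at 8 h. At 2 h the block gave 11 for both agents, 2 for libraries labelled LPA and 10 for libraries labelled 1,25D, and it gave 16 for vehicle over time and 6 for the 8 h interaction.

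With 3 libraries a group, depth was not the limit for abundant members, whereas Ankrd37, Adm, Egln3 and Slc16a3 rest on few reads. The treatment letters of the single agents, the identity of unmatched Tpi1 reads and the split of reads with pseudogenes limit what single values can show.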
